A study of Mus musculus with 81 samples.

Results

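The SLAM receptors are a small family of immunoglobulin-type surface proteins, and Ly9, whose protein is CD229, is one of them. The family was taken here as the genes of the count tables named Ly9, Slamf1, Slamf6, Slamf7, Slamf8, Slamf9, Cd48, Cd84 and Cd244a. All 9 were present, out of 25124 genes, and all 9 passed the filter on low counts in every experiment. They were followed through bulk RNA-seq of microglia, the macrophages that live in the brain, which were obtained by flow cytometry from adult C57BL/6 males.

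The study asked how microglia change when mice are fed cuprizone, a copper-binding compound toxic to oligodendrocytes and so to myelin, and how this depends on 3 genes. At 4 weeks of 0.2% cuprizone, Trem2KO mice were set against WT mice. At 5 weeks, mice labelled Mef2aKO (Cx3cr1CreERT2/WT::Mef2afl/fl) were set against Cre mice (Cx3cr1CreERT2/WT), and at 6 weeks mice labelled Egr2KO (Cx3cr1CreERT2/WT::Egr2fl/fl) were set against Cre mice. The Cre of the driver is expressed from the Cx3cr1 locus, which microglia and other mononuclear phagocytes use, and the Cre controls carry the same driver allele. The cells were sorted on CD229, on CD11c (the product of Itgax) and, at 5 weeks, on Clec7a. The 4-week and 6-week gates were CD229-negative CD11c-negative, CD229-positive CD11c-negative and CD229-positive CD11c-positive. The last of these was not in the Trem2KO set. The 5-week gates were negative for all 3 markers, positive for Clec7a only, positive for Clec7a and CD229, and positive for all 3. Each genotype also had mice on regular diet, whose microglia were gated as CD44Low CD45Low CD11bLow and not on CD229, CD11c or Clec7a. Egr2KO and Cre mice also gave 5-week microglia sorted in that way, called whole here, and Mef2aKO mice gave regular-diet microglia split on CD229. In all, 81 libraries fell into 28 groups of 2 to 4 libraries, and each library was made from the pooled brains of 2 to 6 mice. The p-values therefore measure the spread between such pools.

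SLAM receptors sit mainly on blood and immune cells. Most of them bind their own kind on a neighbouring cell, so that a receptor is also its own ligand, and their tails hold tyrosine switch motifs that recruit the small adaptors SAP and EAT-2 or, without adaptors, inhibitory phosphatases. CD244 instead binds CD48, a protein anchored in the membrane by a lipid and with no tail of its own. Slamf8 and Slamf9 have short tails without the switch motif. In mouse macrophages the family is known for work at the phagosome: SLAMF1 with the Beclin-1 and Vps34 complex, and SLAMF7 with the integrin Mac-1, which is built from Itgam and Itgb2.

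All 9 genes lie on mouse chromosome 1 (mm10). In the order of their coordinates, Cd244a spans chr1:171559193-171585316 on the plus strand, Ly9 chr1:171588613-171607410 on the minus strand and Slamf7 chr1:171632403-171653037 on the minus strand. Cd48 spans chr1:171681992-171705257, Slamf1 chr1:171767132-171801184, Cd84 chr1:171839697-171890718 and Slamf6 chr1:171917462-171943910, all 4 on the plus strand. These 7 genes share 385 kb, with 2 other genes of the tables between them. Slamf9 (chr1:172475360-172478409, plus strand) and Slamf8 (chr1:172581377-172590568, minus strand) lie further along. In the reference annotation the Cd244a gene overlaps the Ly9 span on the opposite strand, although the Cd244a and Ly9 spans given above do not overlap. Slamf7 and Slamf6 each overlap an antisense gene, Gm37787 and Gm37065. Slamf7 also overlaps Mir7683 and Cd48 overlaps Gm37010, each on its own strand. Whether reads were counted by strand is not given in the sources used here, so reads of overlapping genes may have been shared.

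Promoter sequences from 250 bases before to 50 bases after the start site were taken from RefSeq (GRCm38.p6), in which 8 of the 9 members matched. The sequences of Cd244a, Slamf9 and Slamf8 are printed. These 3 genes were higher after 4 weeks of cuprizone in WT mice, and each of them holds the E-box CACGTG, shown in capitals. Cd48 and Cd84 were also higher there, but their promoters hold no CACGTG, so the 3 were picked for holding it. The centre of the E-box lies 61 bases before the start in Cd244a (chr1:171558943-171559242, plus strand), 201 bases before it in Slamf9 (chr1:172475110-172475409, plus strand) and 154 bases before it in Slamf8 (chr1:172590519-172590818, minus strand).
Cd244a: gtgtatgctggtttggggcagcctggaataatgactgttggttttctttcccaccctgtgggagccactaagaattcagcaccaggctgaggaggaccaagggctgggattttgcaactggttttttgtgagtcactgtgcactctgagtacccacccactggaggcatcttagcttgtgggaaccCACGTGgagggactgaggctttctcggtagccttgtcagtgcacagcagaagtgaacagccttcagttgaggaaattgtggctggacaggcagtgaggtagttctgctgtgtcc
Slamf9: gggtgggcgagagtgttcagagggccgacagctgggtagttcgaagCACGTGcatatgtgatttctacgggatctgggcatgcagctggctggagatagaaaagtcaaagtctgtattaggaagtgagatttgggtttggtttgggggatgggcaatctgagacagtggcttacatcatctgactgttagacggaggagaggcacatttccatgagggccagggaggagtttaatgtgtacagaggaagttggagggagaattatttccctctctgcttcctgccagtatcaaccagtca
Slamf8: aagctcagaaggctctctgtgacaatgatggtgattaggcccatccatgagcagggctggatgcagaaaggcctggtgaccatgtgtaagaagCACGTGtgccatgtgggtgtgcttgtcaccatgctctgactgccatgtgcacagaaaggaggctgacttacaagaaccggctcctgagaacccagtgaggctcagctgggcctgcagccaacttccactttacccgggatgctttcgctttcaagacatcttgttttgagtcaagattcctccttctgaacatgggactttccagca
CACGTG was found in 3 of the 8 member promoters and in 7.15% of the 32817 promoters of the same length. A second motif, TGANTCA, the form bound by AP-1 factors, was found in Cd244a, Slamf7, Cd84 and Slamf8, and in 7.81% of all promoters. Both motifs read the same on either strand. The motifs searched were chosen after the promoters had been seen, and a match only describes the letters in these windows. GCGNGGGCG, the form bound by EGR factors, and the MEF2 motif were in none of the 8, against 5.56% and 1.86% of all promoters.

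Microglia held very different amounts of the 9 transcripts. On the scale of TPM (as deposited, corrected for transcript length), the median over the 81 libraries was 181 for Cd84, 121 for Slamf9, 102 for Cd48, 65.2 for Ly9, 34.8 for Slamf8, 24.8 for Slamf6, 9.15 for Cd244a, 3.94 for Slamf1 and 1.37 for Slamf7. The genes with the highest medians were among those that varied least between groups. Group means of Cd84 ran over a 1.67-fold range, of Slamf6 1.66-fold (2.23-fold in CPM, counts scaled to library size), of Cd48 2.67-fold and of Slamf9 2.93-fold. Slamf7 had the widest range, 43.7-fold, followed by Cd244a at 30.9-fold, Ly9 at 14.0-fold, Slamf8 at 11.3-fold and Slamf1 at 5.17-fold. The low genes rest on few reads: Slamf7 had 7 to 623 reads per library, Cd244a 17 to 799 and Slamf1 18 to 166, so their low values carry the largest relative counting error. The deposited count and TPM rows hold the same transcript for 7 members. For Slamf7 the count row is a transcript of 3967 bases and the TPM row one of 3482 bases. For Slamf6 the count row is a transcript of 2550 bases, and the TPM row one of 1488 bases in the 4-week tables and of 1559 bases in the others, so its TPM are not on one scale over the study and its values are given in CPM below. In these bulk libraries, fewer cells of a type and less RNA per cell cannot be told apart.

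**Figure D1:**
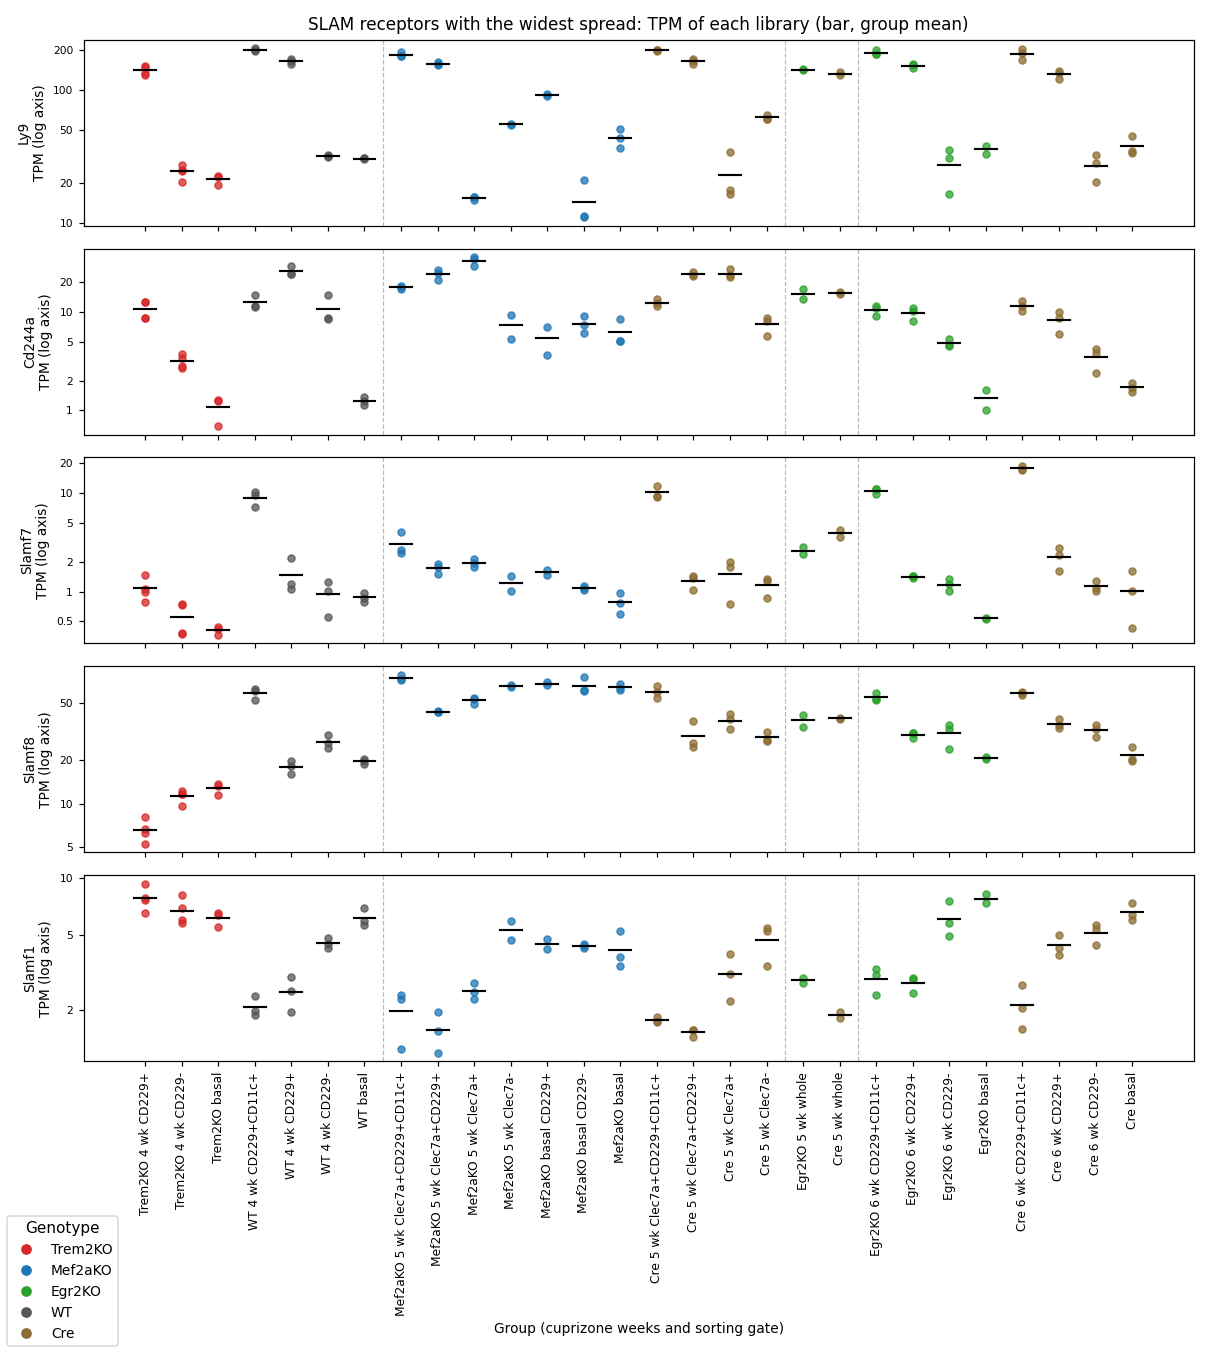
TPM per library (log axis) of the 5 members with the widest ranges between groups, for all 28 groups; each point is a library and each bar a group mean. Ly9 is high in the CD229-positive gates, and Slamf7 is highest in the CD11c-positive gates of WT, Cre and Egr2KO microglia.

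**Figure D2:**
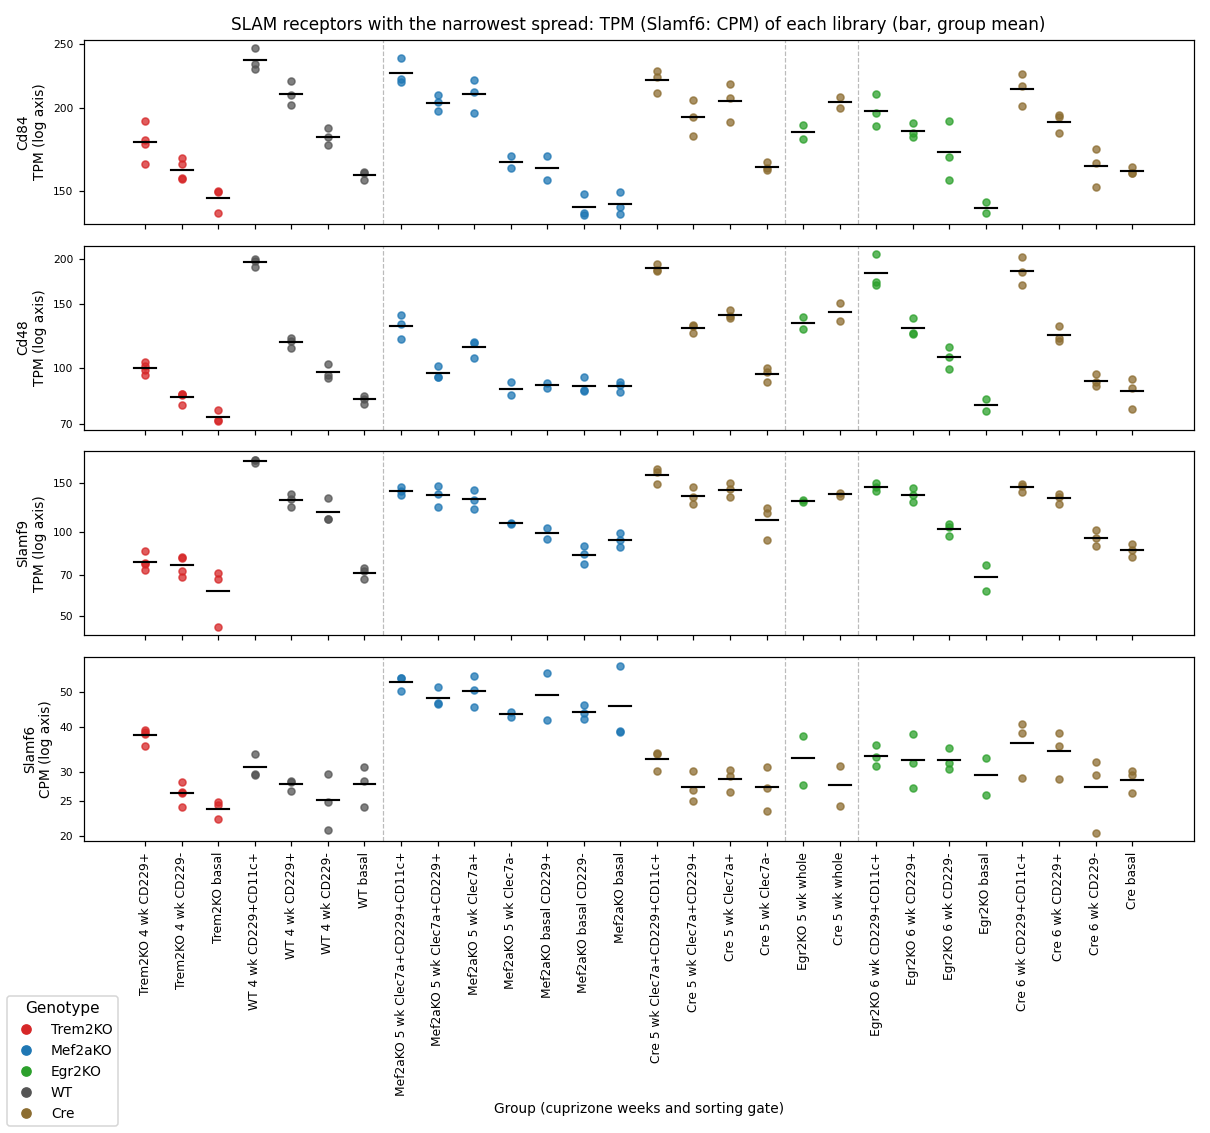
TPM of Cd84, Cd48 and Slamf9 and CPM of Slamf6 per library (log axes), the 4 members with the narrowest ranges, in the same groups; each point is a library and each bar a group mean. Cd48 and Slamf9 are lower in Trem2KO than in WT cuprizone gates, and Slamf6 is higher in Mef2aKO than in Cre in the regular-diet group and each matched 5-week gate.

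Counts of members past the threshold were set beside the share of all tested genes past it, in edgeR's quasi-likelihood test with Benjamini-Hochberg adjustment over all genes of the experiment and a threshold of 0.05. The lowest cuprizone gate was first compared with regular diet, which is called the diet step here and joins a change of diet with a change of gate. In the diet step 2 members were higher in Trem2KO (7.28% of all genes passed) and 5 in WT (30.4%), and none was lower. In the libraries labelled Mef2aKO 0 members passed the diet step with edgeR (7.85%), 4 had an unadjusted p under 0.05, and DESeq2 called 1, while 4 were higher in Cre at 5 weeks (28.8%). At 6 weeks 5 were higher in Egr2KO (8.23%) and 2 in Cre (5.85%). Some library titles carry a PE150 tag. No Cre regular-diet library has it, but replicates 2 and 3 of the Cre CD229-negative gate at 6 weeks do. The Cre diet step at 6 weeks therefore also includes a difference in the tag. At the Clec7a step, from negative for all 3 markers to positive for Clec7a only, 4 members were higher and 2 lower in Mef2aKO (45.8%), and 5 higher and 1 lower in Cre (37.9%).

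At the CD229 step, which always includes Ly9 because its product was the sorting marker, 6 members were higher and 1 lower in Trem2KO (27.5%), 4 higher and 2 lower in WT (48.8%), 3 higher and 1 lower in Egr2KO (27.5%) and 5 higher in Cre at 6 weeks (17.2%). Fewer moved at 5 weeks among Clec7a-positive cells, with 1 higher in Mef2aKO (0.47%) and 1 higher and 1 lower in Cre (5.53%). At the CD11c step, from CD229-positive CD11c-negative to CD11c-positive, 5 were higher and 1 lower in WT (23.3%), 2 higher and 1 lower in Mef2aKO (10.7%), 3 higher and 1 lower in Cre at 5 weeks (14.1%), 3 higher in Egr2KO (11.7%) and 5 higher and 1 lower in Cre at 6 weeks (17.2%). Between CD229-positive and CD229-negative regular-diet microglia of Mef2aKO mice only Ly9 passed, with a background of 0.15%.

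Between genotypes, Trem2KO differed from WT in 2 members on regular diet, both lower (0.577% of all genes), in 7 in the CD229-negative gate, 1 higher and 6 lower (20.3%), and in 8 in the CD229-positive gate, 2 higher and 6 lower (52.5%). The libraries labelled Mef2aKO differed from Cre in 3 members on regular diet, all higher (3.84%). In the triple-negative gate 2 were higher (5.53%), in the Clec7a-only gate 2 were higher and 2 lower (3.7%), in the Clec7a-positive CD229-positive gate 2 higher and 1 lower (4.9%), and in the triple-positive gate 1 higher and 2 lower (4.69%). CD229-positive regular-diet microglia of Mef2aKO mice were also set against all Cre regular-diet microglia. There 4 members were higher (1.59%), among them Ly9, by the sort. The second of these Mef2aKO libraries has the PE150 tag and no Cre regular-diet library does. With the tag as a covariate the Slamf6 call was lost. Between Egr2KO and Cre, 0 members passed with edgeR in any of the 5 comparisons. The background shares there were 0.182% on regular diet, 0.19%, 2.46% and 0.25% in the CD229-negative, CD229-positive and CD11c-positive gates at 6 weeks, and 0.92% in whole 5-week microglia. In the same order 2, 4, 2, 2 and 2 members had an unadjusted p under 0.05, and DESeq2 called 1, 0, 0, 1 and 0. On regular diet both Egr2KO libraries have the PE150 tag and no Cre library does, so that comparison cannot separate genotype from the tag. Several comparisons share libraries, since the Cre regular-diet group served 3 experiments and each gate stands in more than one step, so counts from different comparisons are not independent of each other.

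**Figure D3:**
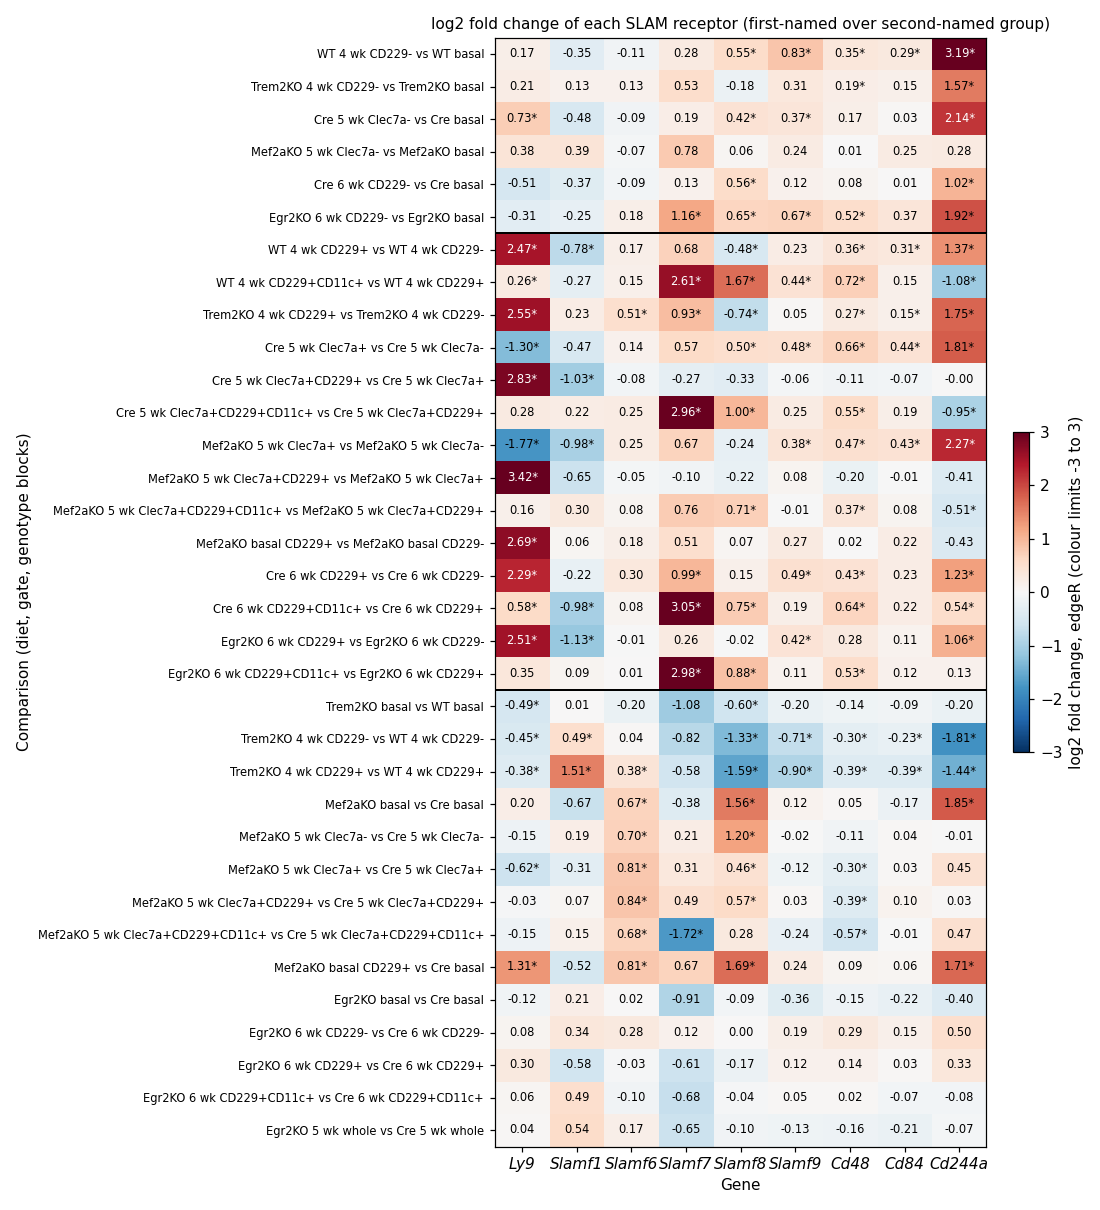
Log2 fold change of each of the 9 members (columns) in each of the 34 comparisons (rows), first-named group over second; an asterisk marks an adjusted p under 0.05 in edgeR's quasi-likelihood test. Cd244a and Slamf8 change in both directions, Cd48 was higher in all 10 of the gate steps in which it passed, and the 5 Egr2KO rows against Cre hold no asterisk.

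Ly9 followed the gate that was set on its protein. In the 34 cuprizone libraries of CD229-positive gates Ly9 had 121 to 208 TPM, with a median of 168, against 10.96 to 35.1 TPM, with a median of 26.3, in the 16 libraries of CD229-negative gates not sorted on Clec7a. The 11 libraries of the 5-week CD229-negative gates, which were sorted on Clec7a, had 14.8 to 65.2 TPM, with a median of 34.4. The sort fixes these differences, and they are given as a description. The 14 regular-diet libraries with no CD229 gate had 19.4 to 51.1 TPM, with a median of 33.4, while CD229-positive regular-diet microglia of Mef2aKO mice had 90.4 and 93.1 TPM, below every CD229-positive library under cuprizone. Whole 5-week microglia, with no gate on CD229, had 142 and 143 TPM in Egr2KO and 137 and 130 TPM in Cre, within the range of the CD229-positive gates.

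Among cells gated as CD229-negative, Ly9 was lower in the Clec7a-only gate than in the triple-negative gate. The Clec7a-only gate had 14.8, 15.5 and 15.6 TPM in Mef2aKO, against 55.8 and 55.1 TPM in the triple-negative gate. In Cre the Clec7a-only gate had 34.4, 17.7 and 16.3 TPM and the triple-negative gate 60.7, 60.9 and 65.2 TPM. The gates did not overlap in either genotype, and 1 Cre library of the Clec7a-only gate was well above the others. The log2 fold change was -1.77 ± 0.17 in Mef2aKO (SE, adjusted p = 1.83e-10) and -1.30 ± 0.14 in Cre (adjusted p = 7.85e-09). Ly9 also differed between the genotypes in the Clec7a-only gate, at -0.62 ± 0.16 for Mef2aKO over Cre (adjusted p = 0.0249), but without the first Cre library the value was -0.18 (adjusted p = 0.667). Without any one of the 3 Mef2aKO libraries it was -0.64 to -0.58, with adjusted p of 0.063 to 0.12. Both of these gates were sorted as CD229-negative, so a shift of the gate was not tested. At the diet step Ly9 rose in Cre at 5 weeks by 0.73 ± 0.14 (adjusted p = 0.0001), where the gate was triple-negative, and the log2 fold change was -0.51 ± 0.17 in Cre at 6 weeks (adjusted p = 0.0895), where the gate was CD229-negative CD11c-negative.

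Ly9 was lower without Trem2 in all 3 comparisons. On regular diet it had 22.3, 19.4 and 22.0 TPM in Trem2KO and 30.5, 30.0 and 30.5 TPM in WT. In the CD229-negative gate it had 27.4, 24.6, 25.1 and 20.4 TPM in Trem2KO and 31.2, 31.8 and 32.5 TPM in WT. CD229-positive cells had 130, 136, 152 and 149 TPM in Trem2KO and 166, 173 and 159 TPM in WT. The genotypes did not overlap in any of the 3. The CD229-negative and CD229-positive gates were sorted on the product of Ly9, and a shift of the gate between genotypes was not tested. The log2 fold changes were -0.49 ± 0.09 on regular diet (adjusted p = 0.00514), -0.45 ± 0.08 in the CD229-negative gate (adjusted p = 0.00031) and -0.38 ± 0.07 in the CD229-positive gate (adjusted p = 6.08e-05). The regular-diet call was lost when only the groups compared entered the fit (adjusted p = 0.220). Ly9 also rose at the CD11c step, which both sides pass as CD229-positive, in WT by 0.26 ± 0.07 (adjusted p = 0.0109) and in Cre at 6 weeks by 0.58 ± 0.15 (adjusted p = 0.00871). Without the third WT CD229-positive library the value was 0.20 (adjusted p = 0.101), and without the first Cre CD11c-positive library it was 0.47 (adjusted p = 0.0602).

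Slamf7, a receptor that binds itself and recruits EAT-2, was low in most microglia and rose at the CD11c step. In the 15 libraries of CD11c-positive gates it had 2.48 to 18.8 TPM, with a median of 9.80, against 0.364 to 2.80 TPM, with a median of 1.09, in the 62 libraries of the other gates and of regular diet. In WT at 4 weeks the CD11c-positive gate had 9.59, 10.1 and 7.23 TPM and the CD11c-negative gate 1.20, 1.06 and 2.20 TPM. In Cre at 6 weeks the values were 17.4, 17.1 and 18.8 TPM in CD11c-positive cells and 1.63, 2.36 and 2.80 TPM in CD11c-negative cells. Every CD11c-positive library was above every CD11c-negative one in both sets. The log2 fold change was 2.61 ± 0.26 in WT (adjusted p = 2.05e-08), 2.96 ± 0.25 in Cre at 5 weeks (adjusted p = 2.42e-10), 2.98 ± 0.22 in Egr2KO (adjusted p = 6.73e-10) and 3.05 ± 0.19 in Cre at 6 weeks (adjusted p = 5.7e-11).

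The libraries labelled Mef2aKO departed from this. Their triple-positive gate had 2.65, 2.48 and 4.07 TPM of Slamf7, against 9.41, 9.14 and 11.9 TPM in the triple-positive gate of Cre. The genotypes did not overlap, and the Mef2aKO cells positive for Clec7a and CD229 only had 1.79, 1.505 and 1.92 TPM. Between genotypes the triple-positive gate differed by -1.72 ± 0.23 (adjusted p = 4.12e-06). The CD11c step itself was 0.76 ± 0.26 in Mef2aKO (adjusted p = 0.0609), and the difference between the steps, Mef2aKO minus Cre, was -2.20 ± 0.37 (adjusted p = 0.0168; 0.053% of all genes passed). That call was lost without the first Mef2aKO library positive for Clec7a and CD229 (-2.13, adjusted p = 0.0763), without the third Cre triple-positive library (-2.07, adjusted p = 0.0645) and without the first Mef2aKO triple-positive library (-2.11, adjusted p = 0.053).

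In CD11c-positive cells at 6 weeks Slamf7 had 11.02, 9.80 and 10.9 TPM in Egr2KO and 17.4, 17.1 and 18.8 TPM in Cre. The values did not overlap, at a log2 fold change of -0.68 ± 0.17, and did not pass (adjusted p = 0.0839). The adjusted p of this difference passed in 5 of the alternative fits and did not pass with RLE size factors. Those 5 were no filter on low counts, only the groups compared, the replicate block, the PE150 covariate and DESeq2. In whole 5-week microglia Slamf7 had 2.82 and 2.39 TPM in Egr2KO and 3.61 and 4.26 TPM in Cre, again apart and again not past the threshold (adjusted p = 0.302). Slamf7 rose at the CD229 step in Cre at 6 weeks by 0.99 ± 0.24 (adjusted p = 0.00484). It also passed there in Trem2KO, at 0.93 ± 0.31 (adjusted p = 0.0256), with 40, 23, 16 and 16 reads in CD229-positive and 16, 8, 17 and 7 reads in CD229-negative libraries. The gates overlapped in CPM, with the lowest CD229-positive and the highest CD229-negative library both at 1.95 CPM, and lay apart in TPM, at 0.778 TPM or more in CD229-positive and 0.756 TPM or less in CD229-negative cells. Without the second or the fourth CD229-negative or the first CD229-positive Trem2KO library the value was 0.76 to 0.78, with adjusted p of 0.0829 to 0.107. At the diet step in Egr2KO it passed at 1.16 ± 0.36 (adjusted p = 0.045), a call lost without either regular-diet library (adjusted p of 0.239 and 0.176), without the second or the third CD229-negative library (0.192 and 0.0756) and with only the groups compared in the fit (0.149).

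Natural killer and T cells also carry SLAMF7, and their marker list moved with the CD11c gate. The sum of its 8 genes was 10.2 to 10.6 CPM in WT CD11c-positive and 3.60 to 5.62 CPM in WT CD229-positive CD11c-negative cells. It was 5.48 to 8.79 CPM in Cre CD11c-positive and 1.39 to 2.17 CPM in Cre CD229-positive cells at 6 weeks. In the triple-positive gates it was 6.88 to 10.3 CPM in Mef2aKO and 6.57 to 9.24 CPM in Cre. Most of the sum was Klrb1c, with up to 10.1 CPM. Lck had up to 1.37 CPM and 0 reads in only 2 of 81 libraries. The other genes of the list were at or near 0. Cd3e had 0 reads in 74 of 81 libraries, Cd3d in 73, Cd3g in 79, Cd8a in 71, Nkg7 in 75 and Ncr1 in 79. The dendritic cell list, nearly all of it Siglech, which microglia express, was 369 to 405 CPM in WT CD11c-positive and 465 to 490 CPM in WT CD229-positive cells. This sum does not show how the other genes of the list moved. Their medians over all libraries were 1.59 CPM for Flt3, 1.14 for Xcr1, 1.19 for Clec9a, 3.01 for Zbtb46 and 0.477 for Cd209a. Their values at the CD11c step are not given here. The part of these lists in the Slamf7 result was not tested.

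Slamf1, the self-binding receptor also known as CD150, had its calls between gates in the opposite direction to most members, with 5 steps lower and none higher. It had 1.24 to 3.32 TPM in the 15 CD11c-positive libraries and 1.19 to 9.38 TPM in the 62 others, with medians of 2.06 and 4.71. CD229-positive cells had 7.71, 6.56, 7.83 and 9.38 TPM in Trem2KO and 1.96, 2.98 and 2.53 TPM in WT. Every Trem2KO library was above every WT library, and the log2 fold change was 1.51 ± 0.18 (adjusted p = 5.48e-08). In the CD229-negative gate it had 5.82, 5.98, 8.12 and 6.92 TPM in Trem2KO and 4.25, 4.50 and 4.83 TPM in WT. That smaller difference of 0.49 ± 0.16 (adjusted p = 0.0288) was lost with the replicate block (0.44, adjusted p = 0.0546). It was also lost without any one of the 3 WT libraries (adjusted p of 0.0962, 0.0696 and 0.0568) and without the third or the fourth Trem2KO library (0.113 and 0.0571). On regular diet the value was 0.01 ± 0.16 (adjusted p = 0.992).

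The CD229 step of Slamf1 differed between Trem2KO and WT. It was 0.23 ± 0.14 in Trem2KO (adjusted p = 0.239) and -0.78 ± 0.19 in WT (adjusted p = 0.00151), and the difference between the steps, Trem2KO minus WT, was 1.01 ± 0.24 (adjusted p = 0.00436; 14.8% of all genes passed). Slamf1 was the only member to pass that test. Slamf1 fell at the CD229 step also in Egr2KO, by 1.13 ± 0.19 on the log2 scale (adjusted p = 5.18e-05), with 2.46, 2.91 and 2.97 TPM in CD229-positive and 4.93, 7.60 and 5.80 TPM in CD229-negative cells. In Cre at 5 weeks the log2 fold change was -1.03 ± 0.25 (adjusted p = 0.0101), and without the second Clec7a-only library it was -0.83 (adjusted p = 0.0969). Between Egr2KO and Cre the difference of the steps was -0.92 ± 0.25 and did not pass (adjusted p = 1): 0 members passed there with edgeR or DESeq2, and 1 had an unadjusted p under 0.05. Slamf1 fell by 0.98 ± 0.25 at the Clec7a step in Mef2aKO (adjusted p = 0.00173) and by 0.98 ± 0.19 at the CD11c step in Cre at 6 weeks (adjusted p = 0.000384).

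Slamf6, known in mice as Ly108 and also a self-binding receptor, changed little with diet or gate and its counts differed between Mef2aKO and Cre in all 5 comparisons. On regular diet it had 38.9, 38.9 and 59.1 CPM in Mef2aKO and 29.4, 30.2 and 26.4 CPM in Cre. In the triple-negative gate it had 42.6 and 44.1 CPM in Mef2aKO and 23.5, 27.3 and 31.1 CPM in Cre. In the triple-positive gate it had 54.5, 50.3 and 54.7 CPM in Mef2aKO and 30.3, 34.0 and 33.7 CPM in Cre. The libraries labelled Mef2aKO were above the Cre libraries in each of the 5 comparisons in CPM. The log2 fold changes in the 5 comparisons were 0.67 ± 0.12 on regular diet (adjusted p = 0.000326), 0.70 ± 0.13 in the triple-negative gate (adjusted p = 0.000654), 0.81 ± 0.12 in the Clec7a-only gate (adjusted p = 3.57e-05), 0.84 ± 0.12 in the Clec7a-positive CD229-positive gate (adjusted p = 1.06e-05) and 0.68 ± 0.12 in the triple-positive gate (adjusted p = 0.000209). The regular-diet call was lost with only the groups compared in the fit (adjusted p = 0.124). The deposited TPM, of another transcript of the gene, differed less: the log2 ratio of the group means was 0.35 on regular diet, 0.32 in the triple-negative gate, 0.39 in the Clec7a-only gate, 0.49 in the Clec7a-positive CD229-positive gate and 0.41 in the triple-positive gate. In the triple-negative gate the TPM overlapped, at 26.9 and 29.2 TPM in Mef2aKO and 16.9, 22.9 and 27.7 TPM in Cre. Slamf6 was the only member past the threshold in all 5. Of all 13204 genes tested, 76 passed in the same direction in all 5, or 0.576%.

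Slamf6 was also higher in CD229-positive regular-diet microglia of Mef2aKO mice than in Cre regular-diet microglia, at 0.81 ± 0.16 (adjusted p = 0.0185). This was lost without the second Cre library (adjusted p = 0.0554), without the second Mef2aKO library (0.63, adjusted p = 0.207) and with the PE150 tag of some library titles as a covariate (0.72, adjusted p = 0.0769). In Trem2KO Slamf6 had 39.2, 35.5, 38.4 and 38.9 CPM in CD229-positive and 24.1, 26.3, 26.4 and 28.3 CPM in CD229-negative cells, a step of 0.51 ± 0.09 (adjusted p = 9.66e-05). It was also higher in Trem2KO than in WT in the CD229-positive gate, at 0.38 ± 0.10 (adjusted p = 0.00234). The Trem2KO libraries there lay above the 28.2, 28.5 and 26.8 CPM of WT.

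Cd84, a self-binding receptor of myeloid cells and platelets, was the highest of the 9 in TPM and varied little. Its group means ran from 142 TPM in Egr2KO regular-diet microglia to 236 TPM in WT CD11c-positive cells. At the Clec7a step it rose by 0.43 ± 0.08 in Mef2aKO (adjusted p = 5.31e-05) and by 0.44 ± 0.07 in Cre (adjusted p = 7.11e-06). CD229-positive cells had 165, 177, 179 and 191 TPM in Trem2KO and 210, 219 and 202 TPM in WT. The groups did not overlap, and the log2 fold change was -0.39 ± 0.06 (adjusted p = 1.95e-06), beside -0.23 ± 0.06 in the CD229-negative gate (adjusted p = 0.00445). In WT it rose by 0.29 ± 0.06 at the diet step (adjusted p = 0.000612) and by 0.31 ± 0.06 at the CD229 step (adjusted p = 0.000157). The CD229 step in Trem2KO, at 0.15 ± 0.05 (adjusted p = 0.0383), was between overlapping gates and was lost without the first or second CD229-negative library (adjusted p of 0.0734 and 0.105) or the third or the fourth CD229-positive library (0.0984 and 0.171).

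Cd48 and Cd244a encode a ligand and its receptor, so that cells which carry both can engage each other. Cd48 was abundant in every library, at 71.2 TPM or more, and rose at the CD11c step in all 5 sets. In WT it had 197, 199 and 190 TPM in CD11c-positive and 121, 118 and 113 TPM in CD229-positive CD11c-negative cells. In Mef2aKO the triple-positive gate had 120.3, 132 and 140 TPM, against 94.4, 94.0 and 101 TPM in cells positive for Clec7a and CD229 only. In Cre the triple-positive gate had 186, 185 and 193 TPM, against 125, 131 and 130 TPM. The gates did not overlap in any of these. The step was 0.72 ± 0.06 in WT (adjusted p = 1.1e-09), 0.37 ± 0.07 in Mef2aKO (adjusted p = 0.000539), 0.55 ± 0.07 in Cre at 5 weeks (adjusted p = 5.82e-07), 0.53 ± 0.11 in Egr2KO (adjusted p = 0.00148) and 0.64 ± 0.11 in Cre at 6 weeks (adjusted p = 8.43e-05). Cd48 also rose at the Clec7a step, by 0.47 ± 0.08 in Mef2aKO (adjusted p = 2.06e-05) and 0.66 ± 0.07 in Cre (adjusted p = 4.74e-09). At the CD229 step it rose by 0.27 ± 0.05 in Trem2KO (adjusted p = 0.000286), 0.36 ± 0.06 in WT (adjusted p = 1.8e-05) and 0.43 ± 0.11 in Cre at 6 weeks (adjusted p = 0.00623).

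After cuprizone Cd48 was lower in both Trem2KO gates than in WT, and in 3 of the 4 gates of the libraries labelled Mef2aKO than in Cre. In the triple-positive gate it fell by 0.57 ± 0.07 in Mef2aKO relative to Cre (adjusted p = 7.09e-07), in the Clec7a-positive CD229-positive gate by 0.39 ± 0.07 (adjusted p = 0.000356) and in the Clec7a-only gate by 0.30 ± 0.07 (adjusted p = 0.00868). The last call was lost without the first Mef2aKO library (-0.24, adjusted p = 0.105). In the triple-negative gate Cd48 had 83.9 and 91.2 TPM in Mef2aKO and 91.2, 97.5 and 99.5 TPM in Cre, at -0.11 ± 0.08 (adjusted p = 0.53). On regular diet the value was 0.05 ± 0.07 (adjusted p = 0.856). In the CD229-positive gate Cd48 had 98.4, 101, 104 and 95.5 TPM in Trem2KO and 121, 118 and 113 TPM in WT, without overlap, at -0.39 ± 0.06 (adjusted p = 2.14e-06). The CD229-negative gate showed -0.30 ± 0.06 (adjusted p = 0.00048). At the diet step Cd48 rose by 0.35 ± 0.06 in WT (adjusted p = 6.27e-05). The Trem2KO diet step was 0.19 ± 0.06 (adjusted p = 0.0411), and this call was lost without 6 of the 7 libraries in turn, with adjusted p of 0.0718 to 0.185. It was also lost with RLE size factors (0.0519), without the filter on low counts (0.131) and with only the groups compared (0.164). The Egr2KO diet step of 0.52 ± 0.13 (adjusted p = 0.00958) was lost without the first regular-diet library (0.48, adjusted p = 0.136).

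Cd244a, the receptor for CD48, had the highest diet step of the 9 members in 5 of the 6 sets. The exception was Mef2aKO, where Cd244a was at 0.28 and Slamf7 at 0.78, neither past the threshold. In Trem2KO it had 3.78, 2.69, 3.42 and 2.82 TPM in CD229-negative cells after cuprizone and 1.25, 1.28 and 0.693 TPM on regular diet. In WT it had 8.59, 8.40 and 15.0 TPM after cuprizone and 1.36, 1.24 and 1.15 TPM on regular diet. Cuprizone and regular-diet libraries did not overlap in either genotype. The step was 1.57 ± 0.27 in Trem2KO (adjusted p = 0.000281) and 3.19 ± 0.24 in WT (adjusted p = 2.97e-11), and the difference between the steps, Trem2KO minus WT, was -1.62 ± 0.39 (adjusted p = 0.0155; 3.95% of all genes passed). Without the first Trem2KO regular-diet library the difference was -1.51 (adjusted p = 0.0592). Between the genotypes Cd244a was lower in Trem2KO by 1.81 ± 0.19 on the log2 scale in the CD229-negative gate (fold change 0.285, adjusted p = 4.56e-08). CD229-positive cells had 12.5, 8.78, 8.63 and 12.7 TPM in Trem2KO and 24.5, 24.2 and 29.2 TPM in WT, at -1.44 ± 0.16 (adjusted p = 1.95e-08). On regular diet the difference was -0.20 ± 0.33 (adjusted p = 0.941).

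The diet step of Cd244a also differed between Mef2aKO and Cre, but from another starting level. On regular diet Cd244a had 5.06, 5.01 and 8.48 TPM in Mef2aKO and 1.53, 1.91 and 1.69 TPM in Cre, and the log2 fold change was 1.85 ± 0.22 (adjusted p = 1.34e-06). In the triple-negative gate it had 5.34 and 9.26 TPM in Mef2aKO and 5.76, 8.58 and 8.17 TPM in Cre. Thus the genotypes were apart on regular diet and overlapped in the triple-negative gate. They also overlapped in the Clec7a-positive CD229-positive gate. In the Clec7a-only gate Cd244a had 29.2 to 36.1 TPM in Mef2aKO and 22.4 to 27.0 TPM in Cre. In the triple-positive gate it had 17.0 to 18.5 TPM in Mef2aKO and 11.5 to 13.5 TPM in Cre, so both pairs were apart. Of the 5 comparisons only that on regular diet passed the threshold. The diet step was 0.28 ± 0.20 in Mef2aKO (adjusted p = 0.474) and 2.14 ± 0.22 in Cre (adjusted p = 2.14e-09), a difference of -1.86 ± 0.30 (adjusted p = 0.00044; 1.39% of all genes passed) that was lost with only the groups compared in the fit (adjusted p = 0.0558). CD229-positive regular-diet microglia of Mef2aKO mice had 3.68 and 7.08 TPM, which differed from Cre regular diet by 1.71 ± 0.28 (adjusted p = 0.00383) and by 1.22 without the second of these libraries (adjusted p = 0.129). At 6 weeks the diet step was 1.92 ± 0.25 in Egr2KO (adjusted p = 3.59e-06) and 1.02 ± 0.21 in Cre (adjusted p = 0.00196).

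In WT, Mef2aKO and 5-week Cre mice the highest group mean of Cd244a was in a CD11c-negative gate. At the Clec7a step it rose by 2.27 ± 0.19 in Mef2aKO (adjusted p = 8.16e-12) and by 1.81 ± 0.16 in Cre (adjusted p = 4.93e-11). At the CD229 step it rose by 1.75 ± 0.18 in Trem2KO (adjusted p = 2.35e-08), 1.37 ± 0.17 in WT (adjusted p = 2.18e-07), 1.06 ± 0.18 in Egr2KO (adjusted p = 5.83e-05) and 1.23 ± 0.17 in Cre at 6 weeks (adjusted p = 1.23e-05). The sum of 8 border macrophage markers differed between the same gates. It was 79.8 to 114 CPM in CD229-positive and 20.2 to 31.4 CPM in CD229-negative Trem2KO cells, 118 to 195 and 47.9 to 67.0 CPM in Egr2KO, and 152 to 370 and 68.3 to 96.7 CPM in Cre at 6 weeks, without overlap. In WT the gates overlapped, at 73.6 to 217 CPM in CD229-positive and 58.0 to 186 CPM in CD229-negative cells. The part of these markers in the CD229 steps of Cd244a and the other members was not tested. Among cells already positive for Clec7a the CD229 step was -0.41 ± 0.14 in Mef2aKO (adjusted p = 0.264) and -0.00 ± 0.14 in Cre (adjusted p = 0.993). At the CD11c step Cd244a fell in WT, with 11.1, 11.4 and 14.9 TPM in CD11c-positive and 24.5, 24.2 and 29.2 TPM in CD229-positive CD11c-negative cells. It fell likewise in Cre at 5 weeks, with 11.5, 12.3 and 13.5 TPM in triple-positive cells and 22.9, 23.6 and 25.6 TPM in cells positive for Clec7a and CD229 only. Neither pair of gates overlapped, and the steps were -1.08 ± 0.17 in WT (adjusted p = 2.89e-05) and -0.95 ± 0.15 in Cre at 5 weeks (adjusted p = 2.01e-05).

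The CD11c step of Cd244a was smaller or upward elsewhere. In Mef2aKO it was -0.51 ± 0.14 (adjusted p = 0.0181), a call lost without any one of 4 libraries: the second or the third positive for Clec7a and CD229 (adjusted p of 0.123 and 0.0737) and the first or the third triple-positive (0.102 and 0.0901). In Cre at 6 weeks it was 0.54 ± 0.16 (adjusted p = 0.0183), with 11.6, 10.2 and 12.8 TPM in CD11c-positive and 5.91, 9.94 and 8.76 TPM in CD229-positive cells. That call was lost without the first or the third CD229-positive library (adjusted p of 0.115 and 0.0572) or the first CD11c-positive library (0.0789). In Egr2KO it was 0.13 ± 0.16 (adjusted p = 0.676). The CD229-positive gate of Cre at 6 weeks, the lower side of the upward step, held the highest border macrophage markers of the series, 152 to 370 CPM summed over 8 genes, against 40.5 to 229 CPM in the CD11c-positive gate. Their part in the step was not tested.

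Slamf8, a short-tailed member that in mouse macrophages restrains the NADPH oxidase, was moved by genotype in both directions. In the CD229-negative gate it had 11.6, 12.2, 9.66 and 11.6 TPM in Trem2KO and 26.4, 24.3 and 29.9 TPM in WT. In the CD229-positive gate it had 8.11, 6.66, 6.31 and 5.27 TPM in Trem2KO and 18.2, 16.0 and 19.9 TPM in WT. Trem2KO libraries were below all WT libraries in both gates, and also on regular diet, with 13.7, 11.5 and 13.1 TPM in Trem2KO and 18.9, 20.4 and 19.8 TPM in WT. The log2 fold changes were -1.33 ± 0.11 in the CD229-negative gate (adjusted p = 3.02e-10), -1.59 ± 0.12 in the CD229-positive gate (adjusted p = 1.57e-11) and -0.60 ± 0.11 on regular diet (adjusted p = 0.0069, and 0.220 with only the groups compared). The diet step was -0.18 ± 0.12 in Trem2KO (adjusted p = 0.461) and 0.55 ± 0.11 in WT (adjusted p = 0.000286), and the difference between the steps, Trem2KO minus WT, was -0.72 ± 0.16 (adjusted p = 0.00804).

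In the libraries labelled Mef2aKO Slamf8 was higher than in Cre in 4 of the 5 comparisons, with the largest value on regular diet. It had 61.2, 63.0 and 67.8 TPM in Mef2aKO and 19.8, 20.5 and 24.5 TPM in Cre on regular diet. In the triple-negative gate it had 63.8 and 66.5 TPM in Mef2aKO and 27.4, 27.5 and 31.4 TPM in Cre. In the triple-positive gate it had 78.1, 72.2 and 72.7 TPM in Mef2aKO and 58.8, 53.7 and 65.1 TPM in Cre. The genotypes did not overlap in any of these 3 comparisons, and the gap was narrower in the triple-positive gate. The log2 fold change was 1.56 ± 0.11 on regular diet (adjusted p = 5.82e-12), 1.20 ± 0.11 in the triple-negative gate (adjusted p = 3.5e-09), 0.46 ± 0.10 in the Clec7a-only gate (adjusted p = 0.00621), 0.57 ± 0.11 in the Clec7a-positive CD229-positive gate (adjusted p = 0.000459) and 0.28 ± 0.10 in the triple-positive gate (adjusted p = 0.103). The Clec7a-only call was lost without the second Cre library (0.37, adjusted p = 0.0775). The Clec7a step was -0.24 ± 0.11 in Mef2aKO (adjusted p = 0.0832) and 0.50 ± 0.11 in Cre (adjusted p = 0.000364), a difference of -0.74 ± 0.16 (adjusted p = 0.00495; 1.95% of all genes passed).

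Slamf8 rose at the CD11c step in all 5 sets, by 1.67 ± 0.11 in WT (adjusted p = 1.19e-11), 0.71 ± 0.10 in Mef2aKO (adjusted p = 6.67e-06), 1.00 ± 0.10 in Cre at 5 weeks (adjusted p = 1.41e-08), 0.88 ± 0.10 in Egr2KO (adjusted p = 1.45e-06) and 0.75 ± 0.10 in Cre at 6 weeks (adjusted p = 3.29e-06). The CD11c-positive gates held 52.3 to 78.1 TPM, and the other gates and regular diet 5.27 to 74.7 TPM, the upper end of which was in Mef2aKO. At the CD229 step it fell by 0.74 ± 0.12 in Trem2KO (adjusted p = 1.98e-05) and by 0.48 ± 0.11 in WT (adjusted p = 0.000715), whereas it was -0.02 ± 0.11 in Egr2KO (adjusted p = 0.921) and 0.15 ± 0.10 in Cre at 6 weeks (adjusted p = 0.33).

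Slamf9, the other short-tailed member, was lower without Trem2 after cuprizone. In the CD229-positive gate it had 72.9, 76.6, 77.1 and 85.4 TPM in Trem2KO and 137, 123 and 132 TPM in WT. In the CD229-negative gate it had 69.0, 72.3, 80.4 and 81.5 TPM in Trem2KO and 111, 111 and 133 TPM in WT. The genotypes did not overlap in either gate, at -0.90 ± 0.10 (adjusted p = 4.86e-08) and -0.71 ± 0.10 (adjusted p = 1.22e-05). On regular diet the value was -0.20 ± 0.12 (adjusted p = 0.74). Slamf9 rose at the diet step by 0.83 ± 0.11 in WT (adjusted p = 1.71e-06), 0.37 ± 0.09 in Cre at 5 weeks (adjusted p = 0.00216) and 0.67 ± 0.08 in Egr2KO (adjusted p = 1.72e-06). The diet step in Trem2KO was 0.31 ± 0.11 (adjusted p = 0.087), and its difference from WT, -0.52 ± 0.16, did not pass (adjusted p = 0.0576). At the Clec7a step Slamf9 rose by 0.38 ± 0.10 in Mef2aKO (adjusted p = 0.00301) and 0.48 ± 0.09 in Cre (adjusted p = 6.99e-05). It rose at the CD229 step at 6 weeks, by 0.42 ± 0.07 in Egr2KO (adjusted p = 6.11e-05) and 0.49 ± 0.07 in Cre (adjusted p = 1.2e-05), and at the CD11c step in WT by 0.44 ± 0.11 (adjusted p = 0.00308). None of the 5 comparisons of Mef2aKO with Cre passed for Slamf9 or Cd84, in which the log2 fold changes lay between -0.24 and 0.12.

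**Figure D4:**
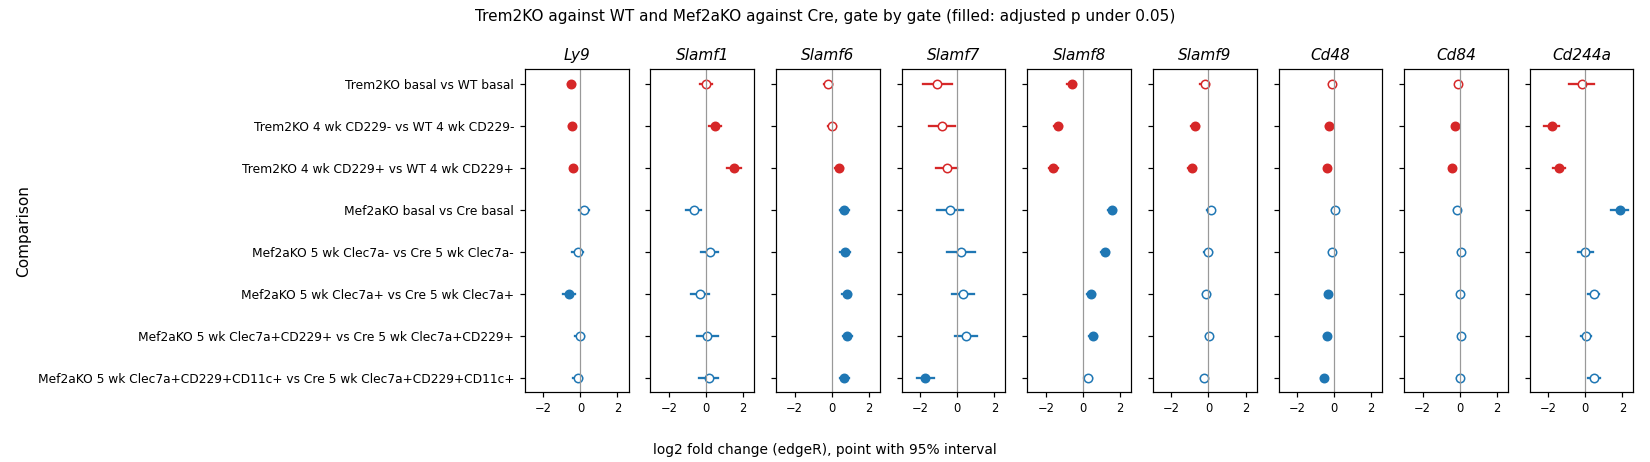
Log2 fold changes of the 9 members with 95% intervals for Trem2KO over WT in 3 comparisons and Mef2aKO over Cre in 5; filled points passed an adjusted p of 0.05. Slamf8 and Cd244a lie below 0 in both Trem2KO cuprizone gates, while Slamf6 lies above 0 in every Mef2aKO comparison.

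The order of groups by mean TPM was often within the spread of the libraries. Between neighbours in that order, the libraries overlapped in all 27 pairs for Slamf1, in 26 for Cd48 and Cd84, 25 for Slamf9, 24 for Slamf7, 23 for Cd244a, 21 for Slamf8 and 18 for Ly9. The lowest and highest group means were 14.4 TPM in CD229-negative regular-diet Mef2aKO cells and 201 TPM in WT CD11c-positive cells for Ly9, and 0.407 TPM in Trem2KO regular-diet and 17.8 TPM in Cre 6-week CD11c-positive cells for Slamf7. For Cd244a they were 1.07 TPM in Trem2KO regular-diet and 33.2 TPM in Mef2aKO Clec7a-only cells, for Slamf8 6.59 TPM in Trem2KO CD229-positive and 74.3 TPM in Mef2aKO triple-positive cells, and for Slamf1 1.52 TPM in Cre cells positive for Clec7a and CD229 and 7.87 TPM in Trem2KO CD229-positive cells.

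The members lie close together, and other genes of the same stretch of chromosome 1 also differed in the libraries labelled Mef2aKO. The tables held 54 other genes between the outermost members or within 500 kb of them, of which 42 were tested in this experiment. Against Cre, 3 of these were higher and 6 lower on regular diet (21.4%), 3 and 5 in the triple-negative gate (19.0%), 3 and 7 in the Clec7a-only gate (23.8%), 3 and 7 in the Clec7a-positive CD229-positive gate (23.8%) and 4 and 9 in the triple-positive gate (31%). The shares over all genes were 3.84%, 5.53%, 3.7%, 4.9% and 4.69% in the same order. In all 5 comparisons 5 of the 42 neighbours passed in the same direction, or 11.9%, against 0.576% of all genes. These were Igsf8 and Itln1, which were higher, and F11r, Igsf9 and Copa, which were lower.

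Igsf8, an immunoglobulin-type partner of tetraspanins, averaged 217 ± 13.4 CPM in Mef2aKO and 93.6 ± 15.3 CPM in Cre on regular diet (SD, n = 3 each), and its log2 fold changes ran from 0.93 to 1.31. Itln1, an intelectin that binds microbial sugars, had 1 to 37 reads in each of the 14 Mef2aKO libraries of this experiment and 0 reads in all 15 Cre libraries. F11r, a junctional adhesion molecule, fell by 0.48 to 1.02 on the log2 scale. Whether the differences of Slamf6, Slamf8 and these neighbours share a cause, and whether the region around the members differs between the mouse lines, was not tested. Of 41 neighbours tested in the 4-week set, 10 were higher and 12 lower in Trem2KO than in WT in the CD229-positive gate (53.7%), against 52.5% of all genes. Far fewer of all genes passed in the CD229-negative gate (20.3%) and on regular diet (0.577%), and the neighbours are not given there. So these values do not show whether an excess of neighbours is particular to Mef2aKO.

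**Figure D5:**
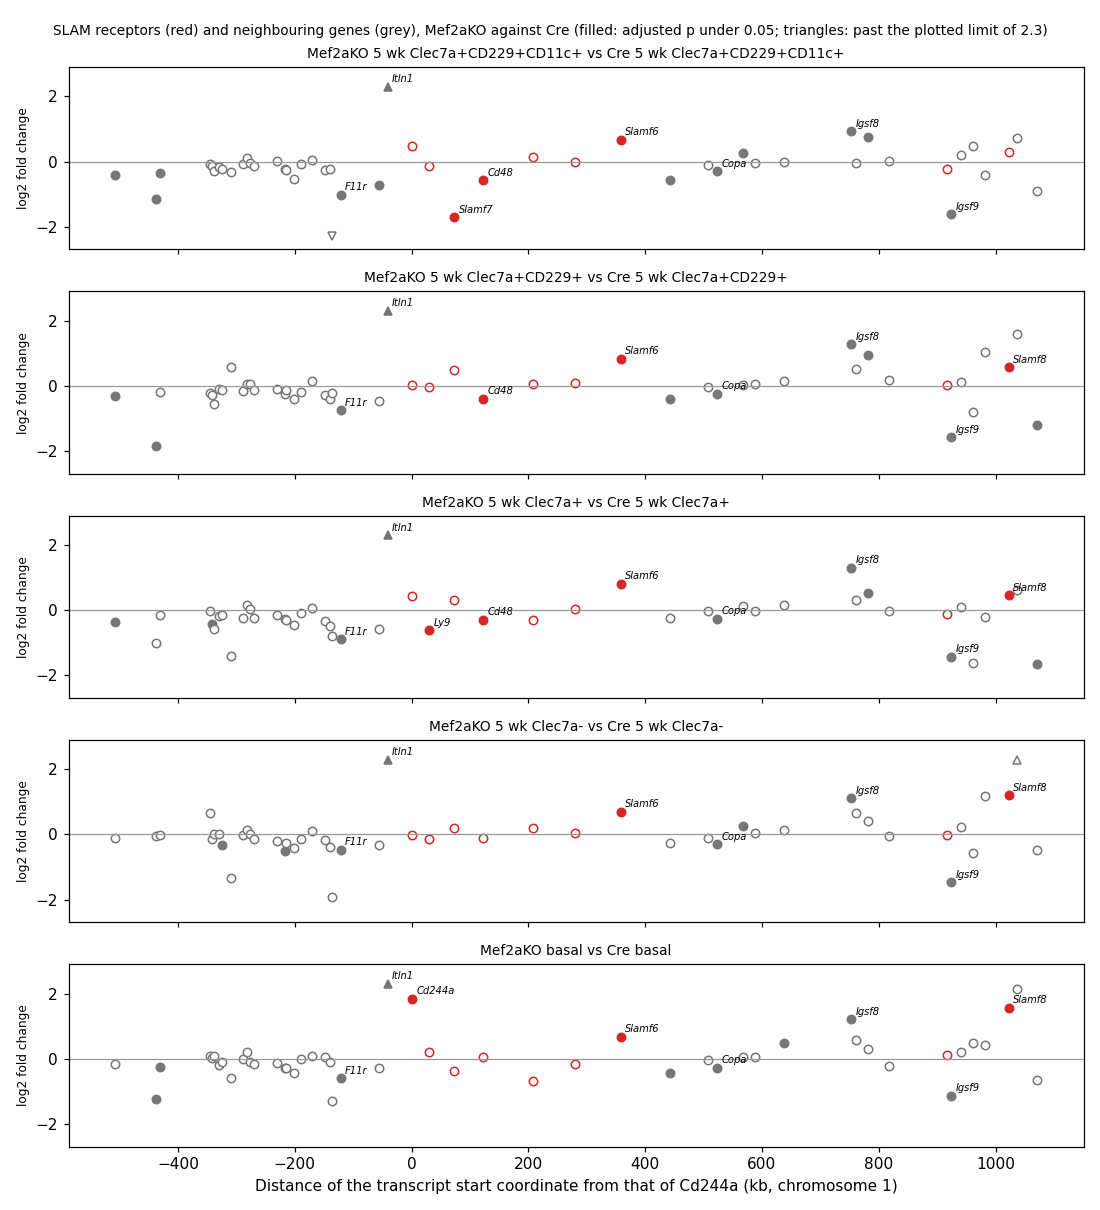
Log2 fold change of Mef2aKO over Cre for tested genes of the stretch of chromosome 1 that holds the 9 members, by distance in kb from the start coordinate of Cd244a, in 5 panels; members and other genes have separate markers, named where called among the members and the 5 neighbours called in all panels, and filled where the adjusted p was under 0.05, and triangles lie past the plotted limit. Neighbours past the threshold lie on both sides of 0, and Slamf6 is above 0 in every panel.

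Of the 3 adaptors that SLAM tails recruit, only Sh2d1b1, which encodes EAT-2, had enough reads to be tested. Sh2d1b1 was higher in Trem2KO than in WT in the CD229-positive gate, at 1.08 ± 0.41 (adjusted p = 0.027), and lower in the Clec7a-only than in the triple-negative gate of Mef2aKO, at -1.13 ± 0.45 (adjusted p = 0.0372). The first pair of groups overlapped in CPM and the second did not. Sh2d1a (SAP), Sh2d1b2 and Cd2, another partner of CD48, did not pass the filter. Among 14 kinases, phosphatases and docking proteins known to act below SLAM receptors, 4 were higher and 5 lower in Trem2KO than in WT in the CD229-positive gate (52.5% of all genes passed), 1 higher and 3 lower in the CD229-negative gate (20.3%), and 1 lower on regular diet (0.577%). Fgr, a Src-family kinase, led these: its log2 fold change was -4.82 ± 0.17 in the CD229-positive gate, -3.79 ± 0.19 in the CD229-negative gate and -1.63 ± 0.28 on regular diet. In the CD229-positive gate Fyn, the kinase that SAP binds, was at -2.34, the docking protein Dok2 at -3.12 and the kinase Syk at 0.51.

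Of 7 phagocytosis partners tested in the same gate, 1 was higher and 5 lower in Trem2KO than in WT (52.5% of all genes passed), the lower ones including Itgb2 and Tyrobp at -0.63 each, Fcer1g at -0.63 and Itgam at -0.41. Itgam and Itgb2 form Mac-1, and Tyrobp and Fcer1g encode the signalling chains DAP12 and FcRγ. At the diet step in WT 5 of the 14 enzymes were higher and 1 lower, among them Fgr at 2.75 ± 0.18, and 5 of 7 partners were higher, where 30.4% of all genes passed. In Trem2KO 0 of either list passed with edgeR, where 7.28% of all genes passed, and 1 enzyme and 2 partners had an unadjusted p under 0.05. At the Clec7a step 4 enzymes were higher and 5 lower in Mef2aKO (45.8%), and 3 higher and 3 lower in Cre (37.9%). Fgr rose by 2.66 in Mef2aKO and 1.74 in Cre there, Dok2 by 2.56 and 1.66, and Fyn by 1.71 and 1.08. Between Mef2aKO and Cre 0 of 8 partners passed in any of the 5 comparisons with edgeR, with 0 or 1 at an unadjusted p under 0.05 in each. Of the 14 enzymes 2 were lower on regular diet (3.84% of all genes passed). In the triple-negative gate 2 were lower (5.53%), and in the Clec7a-only gate 1 was lower (3.7%). In the Clec7a-positive CD229-positive gate 1 was higher and 2 lower (4.9%), and in the triple-positive gate 1 was higher and 2 lower (4.69%). These lists were chosen with earlier results of the same data known.

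Over the 28 group means of log2(CPM + 1), the genes most like each member were named from 10797 genes with at least 5 CPM in a group. Pearson's r over these group means is a description, since groups share gates, genotypes and differences in depth. Slamf7 was most like Atp2b1 (0.95), Gpr83 and Stx3, Cd244a most like Ifi30 (0.95), App and Chst1, and Slamf8 most like Tns4 (0.90), Il1rl1 and Igsf6. Slamf9 was most like Plaur (0.97), Cd300lb and Pdgfa, Cd48 most like Myo1f (0.98), Dram1 and Fxyd6, and Cd84 most like Prdx1 (0.97), Actr3 and Cstb. Ly9 had the lowest leading value, with Shtn1 (0.82), Mapkapk3 and Clec2i. Slamf1 was most like B4galt3 (0.94), Zfp120 and Hhex, and Slamf6 most like Igsf8 (0.87), Hmga2 and Nnt. B4galt3 and Igsf8 are among the 54 neighbours. Among the members, the highest values were 0.91 for Slamf7 with Cd48 and 0.91 for Slamf9 with Cd84, and Slamf1 was negative with all 8 others, from -0.86 with Slamf9 to -0.24 with Slamf6.

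Total counts per library ran from 4387075 to 13972985. Microglial markers summed to 6417 to 14688 CPM in every library, including Tmem119 and P2ry12. Trem2 averaged 106 to 157 CPM in Trem2KO and 387 to 626 CPM in WT groups, with log2 fold changes of -2.06 to -1.85, all past the threshold. Mef2a was not lower in the libraries labelled Mef2aKO, with log2 fold changes of -0.17 to 0.17, none past the threshold; a count over the whole gene does not show the loss of a floxed segment, so this does not check the label. Egr2 was lower in Egr2KO whole 5-week microglia by 1.61 on the log2 scale (adjusted p = 3.94e-05), while at 6 weeks the values were -0.88, -0.62 and -0.43 in the CD229-negative, CD229-positive and CD11c-positive gates and did not pass, and on regular diet 0.04.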

How the data were processed

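Microglial RNA was sequenced in 81 libraries. Per the submitters' processing notes, reads were trimmed with fastp 0.20.0, aligned with STAR 2.7.0f to mm10 (GRCm38) and quantified with HOMER 4.11, and DESeq2 was used, its version not given. The authors deposited 6 tables of raw counts per gene and a TPM column for each library. The deposited TPM columns sum to 490797 to 513360 so TPM is used to set levels side by side and no test rests on it. The count and TPM rows of Slamf6 and Slamf7 are different transcripts of the gene. Each table held 25124 genes and no row without a gene name. The 4-week tables of both genotypes share the WT regular-diet libraries and were joined on the 24910 genes whose counts there were identical, leaving out 214 genes and no member.

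Tests used the deposited counts with edgeR 4.0.16 in R 4.3.3 (limma 3.58.1): filterByExpr by group, TMM factors, 1 coefficient per group, the quasi-likelihood F test and Benjamini-Hochberg adjustment over all genes of an experiment, with a threshold of 0.05. The standard error is the log2 fold change divided by the square root of F. Intervals are 95% and fold changes are first group over second. As a check of the script, changes were put into counts simulated with the depth and spread of the deposited ones. That check followed the fits, and its result is not given here. Alternatives were RLE size factors, no filter, only the groups compared, a replicate block, DESeq2 1.42.0, the PE150 tag of titles as a covariate and leaving out each library. Differences between steps were tested as contrasts, and 4 of the 8 were added after the data had been seen.

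Same-numbered libraries shared deviations from their group means (every pair's r over 0.1) only at the CD229 step in Egr2KO (0.121 to 0.176) and in Cre at 6 weeks (0.170 to 0.288). The labels do not say that a number marks a shared batch.

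Named were all 9 members, up to 4 genes of each pathway list and up to 4 neighbours by smallest adjusted p, with those called in all 5 Mef2aKO comparisons chosen after their values were seen, and the 3 genes most like each member. The members and lists were chosen with earlier results of these data known. 1 neighbour is in the counts but is not reported here and not plotted. Promoters came from RefSeq. Intervals and floors cover counting error and the spread between libraries, and total counts set the precision of the low genes.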

Additional observations from a re-analysis of the deposited data

Results flagged for a closer look

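Cd48 in the CD229-negative gate of Trem2KO mice had 84.6, 84.3, 84.8 and 78.8 TPM, and the gap of the lowest library to its nearest neighbour was 0.903 of the whole range, past the limit for 4 libraries. It was the 1 flag in 18 tests, of the 9 members in each of the 2 groups with 4 libraries, and chance flags about 1 in 20.

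In 6 cases the size of a step differed between genotypes by a test of the difference itself, given here on the log2 scale. The CD229 step of Slamf1 differed by 1.01 between Trem2KO and WT. The diet step differed between Trem2KO and WT by -0.72 for Slamf8 and by -1.62 for Cd244a, and between Mef2aKO and Cre at 5 weeks by -1.86 for Cd244a. The Clec7a step of Slamf8 differed by -0.74 and the CD11c step of Slamf7 by -2.20 between Mef2aKO and Cre. The last 3 of these differences were among those added after the data had been seen.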

How the results depend on the processing

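No member's call reversed its direction under any alternative, and RLE factors moved the median of all genes by less than 0.1. Of 378 member values, 373 kept their direction and side of the threshold with RLE factors, 353 without the filter, 359 with the replicate block and 369 with DESeq2, as did 2593 of 2673 with a library left out. With 2 to 4 libraries per group and 7 to 623 reads of Slamf7 a library, differences of the low genes were the least certain.

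Counts of members past the threshold that moved by over 1.5 times were as follows, and the cause was not tested except where fewer groups entered the fit. The Trem2KO diet step fell to 1 member, against 2, with RLE factors and with only the groups compared, and Trem2KO against WT on regular diet fell to 0, against 2, with only the groups compared. The CD11c step in Cre at 5 weeks had 7 members, against 4, without the filter and with only the groups compared. The Mef2aKO diet step, with 0, had 1 with RLE factors and with DESeq2, and 2 without the filter and with the replicate block. The CD229 step in Mef2aKO at 5 weeks had 2, against 1, without the filter and with only the groups compared. Mef2aKO against Cre in the triple-positive gate had 5, against 3, without the filter and with the replicate block, and 6 with only the groups compared. Egr2KO against Cre, with 0, had 1 on regular diet with the replicate block and with DESeq2, and 1 in CD11c-positive cells without the filter, with only the groups compared, with the replicate block, with the PE150 covariate and with DESeq2. Of the differences between steps, the CD229 step of Mef2aKO and Cre had 1, against 0, without the filter. The diet step of Mef2aKO and Cre had 2, against 1, without the filter and 0 with only the groups compared, and their Clec7a step had 2, against 1, without the filter.

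With 1 library left out in turn, the count ran from 1 to 2 for the Trem2KO diet step, 0 to 1 for the Mef2aKO diet step, 2 to 4 for Mef2aKO against Cre in the Clec7a-only gate and for CD229-positive Mef2aKO against Cre on regular diet, 3 to 5 for the Egr2KO diet step and 0 to 2 for Egr2KO against Cre on regular diet. It ran from 1 to 2 for the difference of the CD229 steps and 1 to 3 for that of the diet steps of Trem2KO and WT, and 0 to 1 for that of the CD11c steps of Mef2aKO and Cre. The replicate block moved the CD229 step in Egr2KO to 5 members, against 4, and in Cre at 6 weeks to 6, against 5, and 7 when nested in genotype and diet.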
